A study of Mus musculus with 11 samples.

Results

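Livers of mice lacking both Mdr2 and interleukin 6 were compared with wild-type livers across all genes that the array could name. The comparison rests on 7 of the 11 arrays of the series, chosen by the genotype label: 4 arrays labelled Mdr2-KO/IL6-KO, called double knockout here, and 3 arrays labelled wild type. All came from male mice 14 months old and from liver tissue free of tumour, and the labels give the strain, C57BL/6, for the wild-type arrays alone. The remaining 4 arrays are Mdr2-KO livers of the same age and sex, which carry the Mdr2 deletion with Il6 intact. They entered the estimate of the spread, and their values are set beside those of the double knockout where that helps. Of 35557 probe sets, 21789 carried a single gene symbol, and these gave 19920 genes, each read by its probe set with the highest mean. Levels are log2 values, so a difference of 1 is a doubling. The labels do not state that the arrays are of separate mice, so the p-values speak only for the scatter among these arrays, which may be partly technical. Titles of the wild-type samples carry numbers with the prefix W and titles of all knockout samples numbers with the prefix BIL, so whatever these series stand for cannot be told apart from genotype.

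Mdr2 is encoded by Abcb4 and sits in the hepatocyte membrane that faces the bile canaliculus, where it moves phosphatidylcholine into bile. Without that phospholipid, bile salts are not packed into mixed micelles and injure the bile ducts, and a slow cholangitis with periportal scarring follows, with liver tumours late in life. Interleukin 6 is a cytokine made mainly by macrophages and other non-parenchymal cells. It binds its receptor and the shared chain gp130, activates STAT3 in hepatocytes and drives the acute-phase response, in which the liver secretes serum amyloid A, fibrinogen and other plasma proteins.

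The targeted genes were read first. Abcb4 had levels of 9.80, 9.95 and 9.74 on the wild-type arrays and 7.83, 8.14, 8.32 and 8.08 on the double-knockout arrays. The groups did not overlap, and Abcb4 was 3.34-fold lower in the double knockout (log2 change -1.74 ± 0.13 SE, limma adjusted p = 6.72e-06). Il6 read 1.78, 2.0 and 1.62 in wild type and 1.89, 1.87, 1.85 and 2.05 in the double knockout, with overlapping arrays (adjusted p = 0.666). These Il6 values lie at the bottom of the scale in every group and check nothing about the Il6 label.

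Both targeted genes lie on chromosome 5, and some of their neighbours changed. Of the 25 measured genes on either side of Abcb4, 8 of 50 were called, which is 16% against 4.20% of all genes, where called means an adjusted p under 0.05. Among them Abcb1b, a drug export pump next to Abcb4, read 4.55, 4.87 and 4.42 in wild type and 7.78, 7.66, 7.54 and 6.86 in the double knockout. Every double-knockout array was far above wild type (7.20-fold, log2 change 2.85 ± 0.18 SE, adjusted p = 3.19e-06). The related pump Abcb1a rose 1.87-fold (adjusted p = 0.0350). Also higher were Fzd1, a Wnt receptor, Sema3c, a secreted guidance protein, Gnai1, a G protein subunit, and Cacna2d1, a calcium channel subunit. Steap4, a metalloreductase, and Cyp51, an enzyme of sterol synthesis, fell. Around Il6, 3 of 50 neighbours were called (6.00%), all higher: Abhd1, Lmbr1 and Galnt11. Abhd1, a hydrolase-like protein, read 6.10, 6.23 and 6.13 in wild type and 8.20, 8.21, 8.14 and 8.34 in the double knockout, with no overlap (4.19-fold, adjusted p = 3.73e-08). The same gene averaged 8.20 in Mdr2-KO, whose Il6 gene is intact. The other Lmbr1 probe set gave a log2 change of -0.05, and Lmbr1 was not called on the mean of its probe sets (adjusted p = 0.306). Calls of Abcb1a (adjusted p = 0.132), Fzd1 (0.157), Sema3c (0.205) and Lmbr1 (0.123) ended without wild-type replicate 1, and that of Galnt11 without wild-type replicate 3 (0.177). On chromosome 5 as a whole 63 of 1144 genes were called (5.51%). Whether alleles of a donor strain around the deletions move these neighbours was not tested, and such alleles and the deletions themselves cannot be told apart.

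The arrays of a group were alike. Pearson correlations over genes were 0.992 to 0.994 within wild type, 0.993 to 0.994 within the double knockout and 0.986 to 0.990 between them, and the median SD of a gene was 0.110 in wild type and 0.127 in the double knockout. That SD was largest, 0.155, in Mdr2-KO, whose arrays also entered the estimate of the spread. In all, 836 genes were called, 580 higher (2.91% of those tested) and 256 lower (1.29%). Of these, 828 had no overlap between the 7 arrays, while 16.3% of all tested genes had none. Most differences were small: the median fold of a called gene was 1.52, 156 called genes reached 2-fold (93 higher and 63 lower) and 22 reached 4-fold (9 higher and 13 lower). The median log2 change of all genes was -0.0005. Before adjustment, 3088 genes had p under 0.05. Without wild-type replicate 1, 2 or 3 the calls numbered 464, 533 or 521, and leaving out double-knockout replicate 1 or 3 took them to 535 or 552; 329 of the 836 genes stayed called whichever of the 11 arrays was left out. A model without moderation of the variances called 496.

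**Figure D1:**
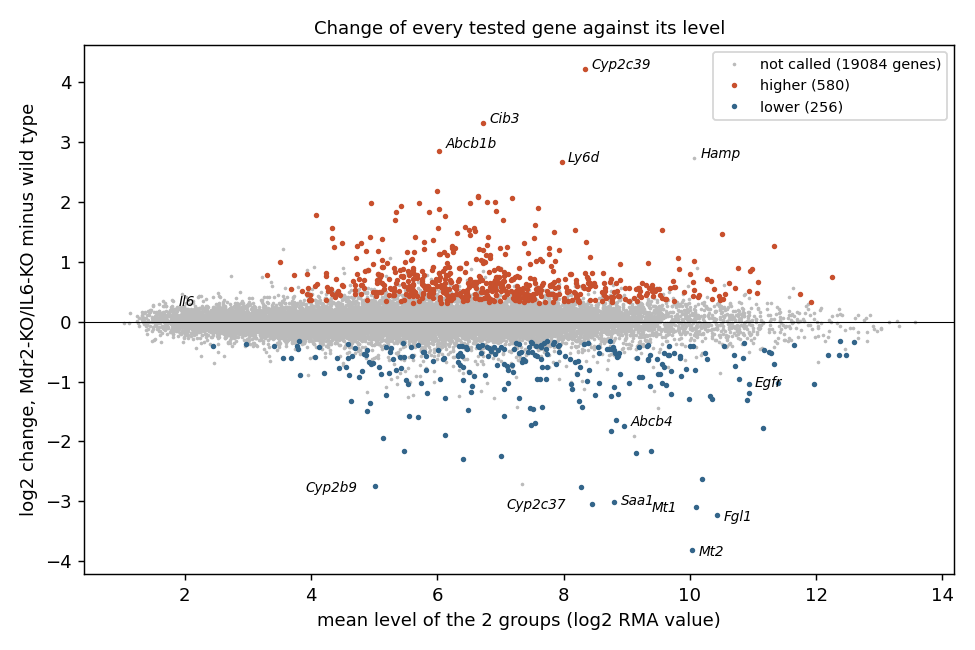
Each point is a gene, with the mean level of both groups (log2 RMA value) on the horizontal axis and the log2 change, Mdr2-KO/IL6-KO minus wild type, on the vertical axis; orange points are the 580 called higher, blue points the 256 called lower and grey points the rest. Cyp2c39 stands alone at the top with a log2 change of 4.23, and Mt2, Fgl1, Mt1, Cyp2c37 and Saa1 lie lowest, between -3.82 and -3.02.

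Among the 12 largest rises, Cyp2c39, a cytochrome that oxidises arachidonic and retinoic acids, read 5.89, 6.30 and 6.47 in wild type and 10.84, 10.34, 10.16 and 10.44 in the double knockout. The groups lay over 3 log2 units apart (18.7-fold, log2 change 4.23 ± 0.16 SE, adjusted p = 1.22e-08). Cib3, a calcium- and integrin-binding protein, read 5.14, 5.0 and 5.05 against 8.23, 8.26, 8.46 and 8.58 (9.97-fold, adjusted p = 3.11e-05). Ly6d, a surface protein of lymphoid and epithelial cells, read 6.94, 6.28 and 6.68 against 9.95, 9.18, 8.38 and 9.72, the widest spread within the double knockout of these 12 (6.38-fold, log2 change 2.67 ± 0.43 SE, adjusted p = 0.00308). Itga8, an integrin chain of mesenchymal cells, rose 4.01-fold. Pls1, an actin bundler of microvilli, and the proteoglycan Lum each rose 3.97-fold. D17H6S56E-5 rose 3.99-fold (adjusted p under 0.05 in each leave-one-out fit, but not without moderation of the variances). The other members of the set, besides Abcb1b and Abhd1, were Tspan8, Itih5 and Mmp12, described with their gene groups.

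**Figure D2:**
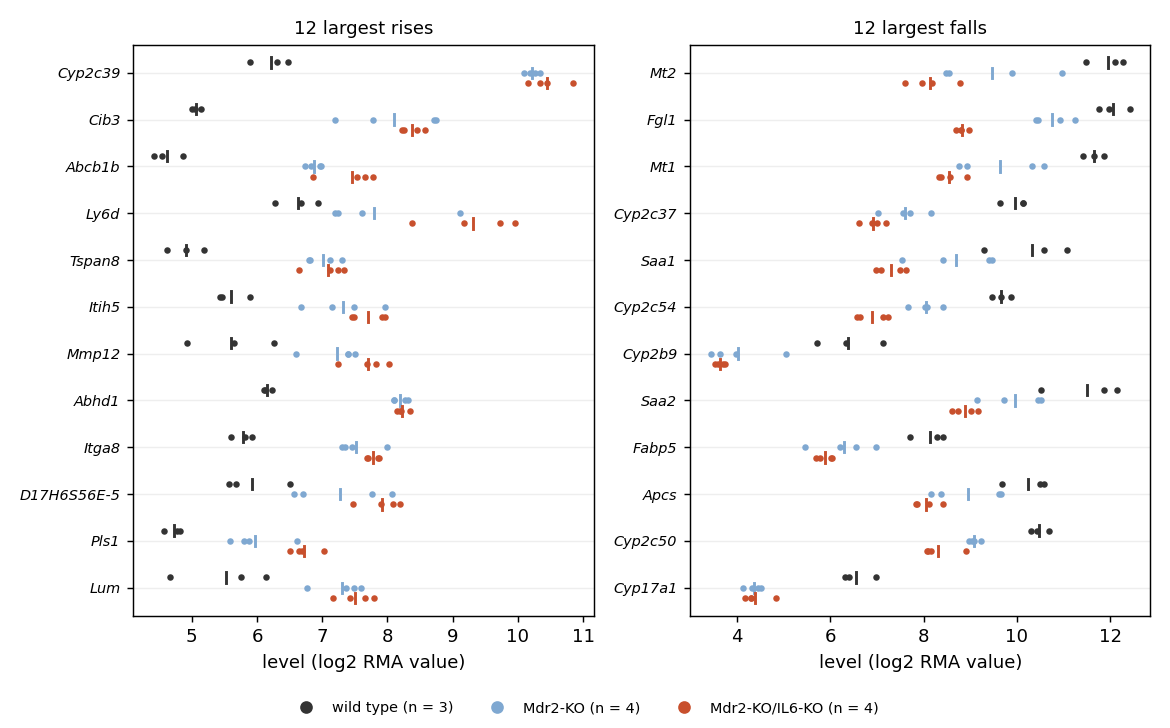
Levels (log2 RMA value, horizontal axis) of the 12 called genes with the largest rises (left) and the 12 with the largest falls (right) on each array; points are arrays, short bars are group means, black is wild type, blue Mdr2-KO and orange Mdr2-KO/IL6-KO. For every gene shown the wild-type and double-knockout arrays do not overlap, as the choice of genes required.

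Acute-phase proteins gave the most falling genes of any list examined. Of 30 measured members 19 fell and none rose (4.20% of all genes were called and 1.29% were called lower), the median log2 change was -0.90, and 26 of 30 changes were negative. The 19 include Mt1 and Mt2, which are also counted and described with the metallothioneins below. The mean level over the list was 10.03 to 10.68 on the wild-type arrays and 9.37 to 9.51 on the double-knockout arrays, without overlap. The serum amyloid A genes, whose products ride on high-density lipoprotein during inflammation, fell strongly. Saa1 read 10.58, 9.29 and 11.08 in wild type and 7.5, 7.08, 6.99 and 7.62 in the double knockout (8.09-fold lower, log2 change -3.02 ± 0.45 SE, adjusted p = 0.00191). Saa2 read 11.86, 10.51 and 12.15 against 9.16, 8.61, 8.73 and 9.02 (6.19-fold lower, adjusted p = 0.00136). In both genes wild-type replicate 2 was the lowest of its group and still above every double-knockout array. Saa1 and Saa2 are near-identical copies, so a probe set of either may read RNA of the other and their separate values are uncertain. Saa3, the form made outside hepatocytes as well, fell 2.99-fold and Saa4, the constitutive form, 2.32-fold.

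The promoters of Saa1 and Saa2 are shown because these copies fell together and because STAT and NF-kB factors are known to act on acute-phase promoters. The 250 bases before each annotated start (RefSeq, GRCm38.p6; Saa1 at chr7:46742981-46743230 on the minus strand, Saa2 at chr7:46751583-46751832 on the plus strand) are given 5′ to 3′ in lower case, with matches to TTNCNNGAA (STAT class) and to GGG, any 5 bases and CC (NF-kB class) in capitals.
Saa1: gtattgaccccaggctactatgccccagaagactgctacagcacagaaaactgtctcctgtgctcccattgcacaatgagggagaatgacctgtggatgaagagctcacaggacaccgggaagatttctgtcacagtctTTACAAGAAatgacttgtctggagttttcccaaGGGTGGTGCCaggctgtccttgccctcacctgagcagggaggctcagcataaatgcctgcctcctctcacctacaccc
Saa2: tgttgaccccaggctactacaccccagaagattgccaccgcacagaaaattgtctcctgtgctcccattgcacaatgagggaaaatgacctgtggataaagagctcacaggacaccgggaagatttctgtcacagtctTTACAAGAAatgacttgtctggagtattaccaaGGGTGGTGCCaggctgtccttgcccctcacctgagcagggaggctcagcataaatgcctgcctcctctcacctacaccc
The STAT-class letters begin 111 bases before the start in Saa1 and 112 in Saa2, and the NF-kB-class letters 78 and 79 bases before it; the matches of the different motifs do not overlap. The windows were identical at 238 of 251 aligned columns (94.8%). Searched on both strands, TTNCNNGAA occurred in 11.1% of 32851 promoter windows of the same length and the NF-kB-class letters in 45.8%. A match describes letters and not a bound site.

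Fgl1, a fibrinogen-like protein that hepatocytes secrete, read 11.97, 11.76 and 12.41 in wild type and 8.80, 8.69, 8.97 and 8.80 in the double knockout (9.37-fold lower, log2 change -3.23 ± 0.19 SE, adjusted p = 1.67e-06). All 4 double-knockout arrays lay within 0.3 of each other. Serum amyloid P, encoded by Apcs, the main acute-phase pentraxin of mice, read 10.49, 9.67 and 10.57 against 8.12, 7.83, 7.85 and 8.42 (4.56-fold lower, adjusted p = 0.00259). Serpina3n, a serine protease inhibitor, read 11.93, 11.23 and 11.50 against 10.24, 10.26, 10.20 and 10.28 (2.47-fold lower, adjusted p = 0.000226). Itih4, a plasma protein related to the hyaluronan-binding inhibitors, read 12.48, 12.36 and 12.59 against 11.39, 11.37, 11.59 and 11.42 (2.05-fold lower, adjusted p = 2.03e-05). In each of these genes the groups were apart by more than the range within either. Steap4 fell 2.30-fold, the leucine-rich glycoprotein Lrg1 1.95-fold, the protein Z-dependent inhibitor Serpina10 1.89-fold and Itih3 1.64-fold. The fibrinogen chains fell less, Fgb and Fgg 1.47-fold each and Fga 1.83-fold. Lcn2, a siderophore-binding protein, fell 2.45-fold and Lbp, which binds lipopolysaccharide, 1.33-fold. Calls of Fga (adjusted p = 0.164) and Lbp (0.195) ended without wild-type replicate 1 and that of Lcn2 without wild-type replicate 3 (0.0997); the other 16 held whichever array was left out. Not every member passed: Orm2, an acid glycoprotein, read 10.37, 9.32 and 10.97 against 8.83, 8.59, 8.73 and 8.92 (log2 change -1.45, adjusted p = 0.0856).

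**Figure D3:**
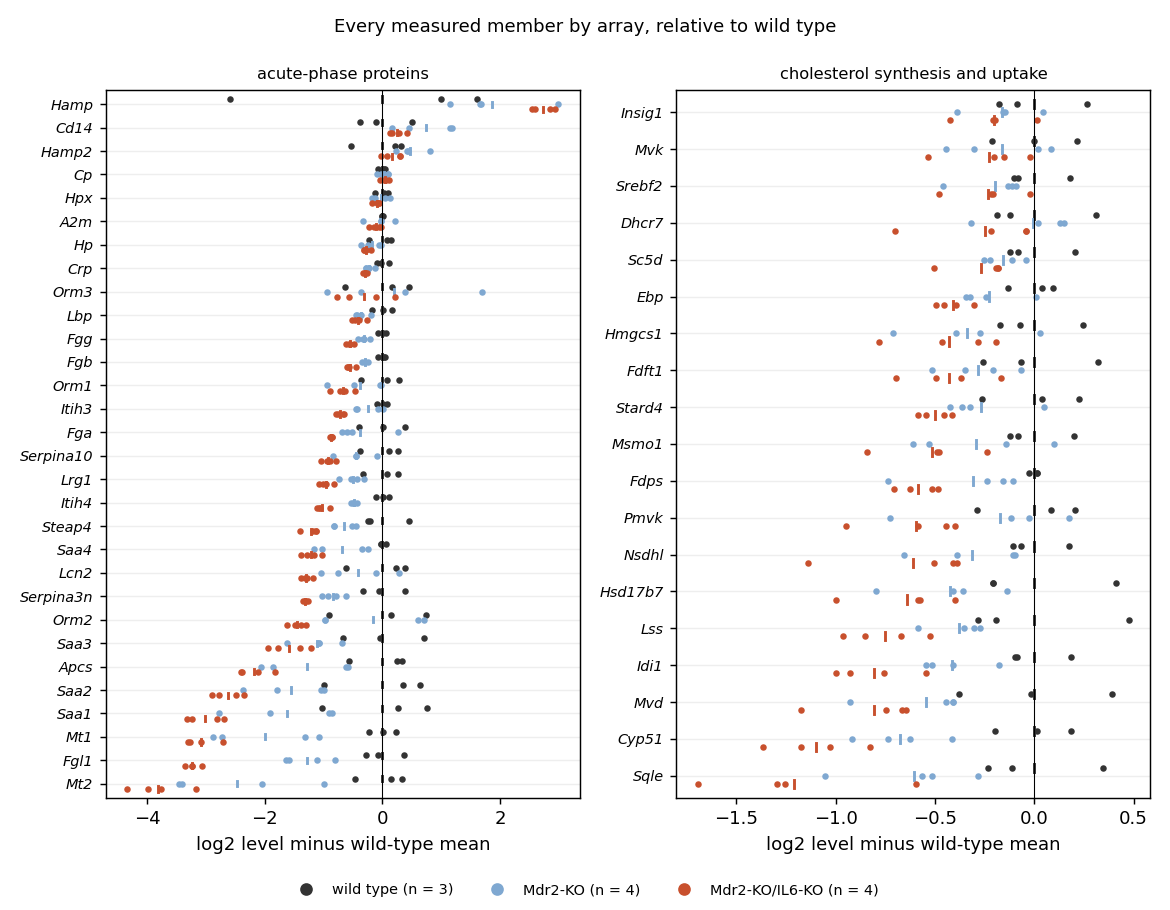
Every measured acute-phase gene (left) and cholesterol synthesis gene (right) on each array, as log2 level minus the wild-type mean (horizontal axis); points are arrays, short bars are group means, black is wild type, blue Mdr2-KO and orange Mdr2-KO/IL6-KO. Of 30 acute-phase genes 26, and of 19 cholesterol genes all 19, have a double-knockout mean below wild type.

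The receptors and signalling proteins of the interleukin 6 family moved less than the plasma proteins. Of 25 measured members 3 fell and 1 rose (4.20% of all genes were called), with a median log2 change of -0.01. Stat3, the transcription factor that gp130 activates, read 9.67, 9.65 and 9.34 in wild type and 8.37, 8.53, 8.61 and 8.56 in the double knockout (2.05-fold lower, log2 change -1.03 ± 0.13 SE, adjusted p = 0.000736). The groups did not overlap, and this call held whichever array was left out. The kinase Pim1 and the leukaemia inhibitory factor receptor Lifr each fell 1.56-fold, and Stat5b, the growth hormone effector, rose 1.31-fold. These 3 calls ended without an array, Pim1 without wild-type replicate 2 (adjusted p = 0.0755) and Lifr (0.169) and Stat5b (0.141) without wild-type replicate 3. The receptor Il6ra had a log2 change of -0.30 (adjusted p = 0.500) and gp130, encoded by Il6st, one of -0.15 (adjusted p = 0.434). Socs3, the feedback inhibitor of STAT3, read 7.21, 6.65 and 6.95 against 6.16, 6.48, 6.43 and 6.36 without reaching the threshold (adjusted p = 0.217).

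Metallothioneins, small cysteine-rich proteins that hold zinc and copper, gave the largest fall of the comparison. Mt2 read 12.28, 11.48 and 12.09 in wild type and 8.78, 8.18, 7.96 and 7.61 in the double knockout (14.2-fold lower, log2 change -3.82 ± 0.49 SE, adjusted p = 0.000669). Mt1 read 11.87, 11.42 and 11.65 against 8.94, 8.56, 8.37 and 8.34 (8.51-fold lower, adjusted p = 0.000455). Neither gene overlapped between the groups. The brain and epithelial forms did not follow: Mt3 read 6.30, 6.27 and 6.21 against 6.12, 6.35, 6.11 and 6.08 (adjusted p = 0.786), and Mt4 had a log2 change of 0.04 (adjusted p = 0.933). Slc39a14, which brings zinc and iron into hepatocytes, read 10.24, 10.17 and 10.05 against 9.20, 9.16, 9.02 and 8.98 (2.08-fold lower, adjusted p = 0.00582), and Slc39a4, the zinc importer of the intestine, rose 1.96-fold. The call of Slc39a4 ended without wild-type replicate 3 (adjusted p = 0.0641). The zinc exporter Slc30a1 had a log2 change of -0.25 (adjusted p = 0.217), Slc30a10, a manganese exporter, one of -0.52 (adjusted p = 0.207) and the importer Slc39a5 one of -0.12 (adjusted p = 0.762). Of the 11 genes of this list, which leaves out Slc39a5, 3 fell and 1 rose (median log2 change -0.10), beside 4.20% of all genes called. In the 250 bases before the annotated starts, the metal response element core TGCACNC or TGCGCNC was found 1 time at Mt1 and 3 times at Mt2, on either strand, and in 21.4% of all promoter windows.

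Hamp, among the iron genes, spread widely in wild type. It encodes hepcidin, the hormone that closes the iron exporter ferroportin and that interleukin 6 induces through STAT3. Hamp read 10.30, 6.10 and 9.69 in wild type and 11.55, 11.63, 11.25 and 11.29 in the double knockout, so that every double-knockout array was above wild type, while wild-type replicate 2 lay far below the other wild-type arrays (log2 change 2.73 ± 0.74 SE, adjusted p = 0.0567). Of 16 iron genes 2 rose and 1 fell, by at most 1.37-fold (median log2 change 0.15), beside 4.20% of all genes called. Smad7, an inhibitor of the hepcidin pathway, and the ferritin light chain Ftl1 rose and the transferrin sensor Tfr2 fell. Their calls ended without wild-type replicate 2 (adjusted p = 0.0931 for Smad7 and 0.105 for Ftl1) or 3 (0.164 for Tfr2).

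Other plasma protein systems had smaller median changes. Of complement genes 4 of 27 were called and of coagulation genes 2 of 20, against 4.20% of all genes. In complement, C4b, the opsonin precursor of the classical pathway, read 10.99, 11.08 and 11.16 in wild type and 10.21, 10.36, 10.43 and 10.34 in the double knockout (1.67-fold lower, adjusted p = 0.000464), and Cfi, the protease that inactivates C3b, fell 1.44-fold. The terminal components C6 and C7 rose 1.44-fold and 1.88-fold, and the median of the 27 complement genes was -0.17. Both calls ended without wild-type replicate 3 (adjusted p = 0.112 for C6 and 0.0906 for C7). In coagulation, tissue plasminogen activator, encoded by Plat, rose 2.24-fold (adjusted p = 0.000222) and kininogen, Kng1, fell 1.26-fold, a call that ended without wild-type replicate 3 (adjusted p = 0.121); the other 18 of 20 genes were not called. Of 23 hepatocyte transcription factors and secreted proteins 1 was called, Foxa3, a pioneer factor, which fell 1.55-fold (adjusted p = 0.00582). The defining hepatocyte markers were close between the groups: Alb averaged 13.36 in wild type and 13.28 in the double knockout (adjusted p = 0.726), Ttr 12.89 and 12.72 (adjusted p = 0.299), Apoa1 13.05 and 12.89 (adjusted p = 0.393) and Hnf4a 10.22 and 9.92 (adjusted p = 0.219).

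Cyp2c cytochromes, which oxidise drugs and arachidonic acid, split. Of 13 measured members 6 fell and 1, Cyp2c39, rose; the median log2 change was -0.37, and all 7 calls held whichever array was left out. Cyp2c37 read 9.64, 10.13 and 10.12 in wild type and 6.61, 6.90, 7.19 and 7.0 in the double knockout (8.21-fold lower, log2 change -3.04 ± 0.22 SE, adjusted p = 6.72e-06). Cyp2c54 read 9.47, 9.66 and 9.87 against 6.57, 6.64, 7.13 and 7.25 (6.80-fold lower, adjusted p = 6.20e-06). Cyp2c50 read 10.43, 10.31 and 10.68 against 8.07, 8.17, 8.10 and 8.90 (4.46-fold lower, adjusted p = 1.81e-05). These 3 genes each lay at least 1 log2 unit lower on every double-knockout array than on any wild-type array. Cyp2c55 fell 3.84-fold, Cyp2c29 3.41-fold and Cyp2c68 2.70-fold. The other members did not pass: Cyp2c38 had a log2 change of -0.24 (adjusted p = 0.601), Cyp2c66 of -0.37 (0.378), Cyp2c65 of -0.34 (0.320), Cyp2c67 of -0.11 (0.808), Cyp2c70 of 0.05 (0.885) and Cyp2c23 of 0.40 (0.0522). Because the family shares long stretches of sequence, a probe set named for 1 member may read RNA of another, and the size of each change is uncertain.

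Of 24 other cytochromes and their regulators 3 fell and 4 rose, and 2 of these calls, Cyp17a1 and Cyp2b9, were left without double-knockout replicate 1. Cyp17a1, the steroid 17-hydroxylase and lyase, read 6.40, 6.98 and 6.31 in wild type and 4.84, 4.30, 4.17 and 4.30 in the double knockout (4.47-fold lower, adjusted p = 2.03e-05). Cyp2b9, a female-biased enzyme, read 6.33, 7.14 and 5.71 against 3.53, 3.61, 3.76 and 3.71 (6.68-fold lower, adjusted p = 0.000613). Wild type varied more than the double knockout for Cyp2b9, without overlap. Cyp3a44 rose 1.67-fold, the pregnane X receptor Nr1i2 1.33-fold and Cyp2d9 1.31-fold; these calls ended without wild-type replicate 2 (adjusted p = 0.0789 and 0.127) and wild-type replicate 1 (0.158). Cyp3a13 fell 1.84-fold and Cyp2a12 rose 1.37-fold, and neither was called without wild-type replicate 1 (adjusted p = 0.193 and 0.136). The median of the list was -0.04, and 4.20% of all genes were called.

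Transporters and bile acid genes, the setting in which Mdr2 works, changed in a few members, beside a share of 4.20% called over all genes. Besides Abcb4 and its neighbours Abcb1b and Abcb1a, Slc22a7, an organic anion uptake carrier, fell 2.17-fold (adjusted p = 0.00882) and Abca1, which loads cholesterol onto apolipoprotein A-I, fell 1.46-fold. The efflux pumps Abcg2 and Abcc4 rose 1.34-fold and 1.35-fold. Calls of Abca1 (adjusted p = 0.0695), Abcg2 (0.0779) and Abcc4 (0.0939) ended without wild-type replicate 2, which left 3 of the 7 calls among 24 transporters. The bile salt export pump Abcb11 read 11.07, 11.20 and 10.89 in wild type and 11.56, 11.48, 11.44 and 11.03 in the double knockout, with overlap (adjusted p = 0.211). Of 15 genes of bile acid synthesis and its feedback, the farnesoid X receptor Nr1h4 fell 1.36-fold (adjusted p = 0.0188, and 0.100 without wild-type replicate 3). Cyp7a1, the rate-limiting enzyme of bile acid synthesis, read 9.80, 10.20 and 10.12 against 9.49, 9.75, 8.70 and 9.17, lower on every array without reaching the threshold (adjusted p = 0.0814).

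Genes of cholesterol synthesis had lower means throughout. Of 19 measured genes 7 fell and none rose, all 19 changes were negative, and the median log2 change was -0.51. The list mean was 9.21 to 9.64 on the wild-type arrays and 8.56 to 9.05 on the double-knockout arrays. Cyp51, the lanosterol demethylase, read 9.15, 9.53 and 9.36 in wild type and 7.98, 8.32, 8.52 and 8.17 in the double knockout (2.14-fold lower, adjusted p = 0.000770). Idi1, which isomerises isopentenyl diphosphate, read 10.38, 10.66 and 10.39 against 9.48, 9.72, 9.93 and 9.55 (1.75-fold lower, adjusted p = 0.00261). These were the 2 calls left without wild-type replicate 2, and both held whichever array was left out. Squalene epoxidase, Sqle, fell 2.31-fold, Mvd 1.75-fold, lanosterol synthase Lss 1.68-fold, Fdps 1.5-fold and Ebp 1.33-fold. Without wild-type replicate 2 the adjusted p of Sqle was 0.0568, that of Lss 0.0690, that of Mvd 0.119 and that of Ebp 0.150, and without wild-type replicate 3 that of Fdps was 0.0815. Insig1, a sterol-responsive brake on the pathway, had a log2 change of -0.20 (adjusted p = 0.565).

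Fatty acid and carbohydrate metabolism gave single genes, beside a share of 4.20% called over all genes. In fatty acid synthesis 1 of 21 genes was called, Acacb, the mitochondrial acetyl-CoA carboxylase, 2.08-fold lower (adjusted p = 0.00350), and 17 of 21 changes were negative (median -0.22). In fatty acid oxidation Pdk4, which restrains glucose oxidation, read 5.53, 5.86 and 5.61 in wild type and 6.51, 6.72, 7.03 and 7.08 in the double knockout (2.24-fold higher, adjusted p = 0.00582), and the fasting hormone Fgf21 fell 1.94-fold (adjusted p = 0.0103). Cyp4a14, a target of PPAR-alpha, read 9.78, 10.18 and 10.25 against 7.38, 8.06, 8.46 and 8.73, apart but not called (adjusted p = 0.0801). Among 24 lipid uptake and lipoprotein genes 3 fell. Fabp5, the epidermal fatty acid binding protein, read 7.70, 8.42 and 8.28 against 6.01, 5.69, 6.04 and 5.79 (4.76-fold lower, adjusted p = 0.000548), and its other probe set gave a log2 change of -2.33. Pltp, the phospholipid transfer protein of plasma lipoproteins, fell 2.36-fold (adjusted p = 0.00139) and the liver form Fabp1 1.47-fold. The glucose transporter Slc2a2 rose 1.44-fold and lactate dehydrogenase Ldha fell 1.31-fold. Calls of Slc2a2 (adjusted p = 0.0811) and Ldha (0.148) ended without wild-type replicate 1 and that of Fabp1 without wild-type replicate 3 (0.0963). None of 20 genes of amino acid and urea metabolism was called (median 0.04).

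Genes that mark the zones of the lobule were also read (4.20% of all genes were called). Of 10 periportal genes 2 rose and 1 fell (median 0.26). E-cadherin, Cdh1, which hepatocytes near the portal tract and bile duct cells both carry, read 6.43, 6.97 and 6.52 in wild type and 8.45, 8.44, 8.98 and 8.28 in the double knockout (3.72-fold higher, log2 change 1.90 ± 0.17 SE, adjusted p = 3.68e-05). Etnppl, an ethanolamine phosphate lyase, read 7.69, 7.45 and 7.08 against 9.32, 9.03, 8.63 and 8.84 (2.91-fold higher, adjusted p = 0.000736). Both genes were apart by over 0.9 log2 units. The protease Ctsc fell 1.77-fold, a call that ended without wild-type replicate 1 (adjusted p = 0.0875). Of 16 pericentral genes the transcription factor Tbx3 fell 1.59-fold (adjusted p = 0.0479, and 0.209 without wild-type replicate 3), and 13 of 16 changes were negative.

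Male-biased and female-biased liver genes did not move as blocks (4.20% of all genes were called). Of 16 male-biased genes 2 fell and 2 rose. Egfr, the epidermal growth factor receptor, read 11.36, 11.52 and 11.49 in wild type and 9.97, 10.26, 10.82 and 10.57 in the double knockout, lower on every array (2.07-fold, adjusted p = 0.00322), and the major urinary protein Mup3 fell 2.03-fold. The call of Mup3 ended without wild-type replicate 3 (adjusted p = 0.0674). Hsd3b5, a male-specific steroid reductase, spread widely, 7.17, 9.44 and 9.46 against 4.84, 4.99, 6.43 and 7.67 (log2 change -2.71 ± 0.78 SE, adjusted p = 0.0761). Of 11 female-biased genes 3 fell, Cyp17a1, Cyp2b9 and the carrier Slc22a27 (1.83-fold), and 2 rose, Cyp3a44 and the flavin monooxygenase Fmo2 (2.04-fold). Slc22a27 was not called without wild-type replicate 1 (adjusted p = 0.0809) and Fmo2 not without wild-type replicate 2 (0.123).

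Bile duct cell genes rose together. Of 28 measured markers of bile duct cells and the ductular reaction 15 rose and none fell (2.91% of all genes were called higher), 27 of 28 changes were positive and the median log2 change was 0.64. The list mean was 5.96 to 6.05 on the wild-type arrays and 6.61 to 6.82 on the double-knockout arrays. Epcam, the epithelial adhesion molecule, read 5.33, 5.11 and 5.33 in wild type and 6.47, 6.58, 7.08 and 6.32 in the double knockout (2.56-fold higher, log2 change 1.36 ± 0.15 SE, adjusted p = 0.000320). Keratin 19, Krt19, the standard bile duct keratin, read 4.87, 5.31 and 5.35 against 6.45, 6.36, 6.89 and 5.88 (2.32-fold higher, adjusted p = 0.00333). In both genes double-knockout replicate 3 was the highest array and replicate 4 the lowest of its group, and no array overlapped. Tspan8, a tetraspanin of epithelia, read 4.91, 4.62 and 5.19 against 7.12, 7.33, 7.24 and 6.65 (4.54-fold higher, adjusted p = 1.88e-05). Krt23 read 4.26, 4.21 and 3.92 against 5.82, 5.14, 5.24 and 5.54 (2.48-fold higher, adjusted p = 0.000324). Keratin 23 is induced in stressed ducts and hepatocytes. Cd24a, a surface protein of progenitor-like cells, rose 2.82-fold, Bicc1, an RNA-binding protein of ducts, and Pkhd1, fibrocystin of the primary cilium, 1.97-fold each, and Cftr, the chloride channel of bile secretion, 1.74-fold. The water channel Aqp1, the transcription factor Ehf, the protease St14, Anxa13, Cldn4 and Krt8 rose 1.44- to 1.86-fold. Keratin 18, Krt18, rose 1.6-fold, the only call among the 15 that ended in a leave-one-out fit (adjusted p = 0.170 without wild-type replicate 2). Defining markers that did not pass were Krt7 (5.68 in wild type and 6.05 in the double knockout, adjusted p = 0.130) and Sox9 (6.65 and 6.95, adjusted p = 0.259). In whole-liver RNA, a change in the number of cells of a type and a change in RNA per cell cannot be told apart.

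**Figure D4:**
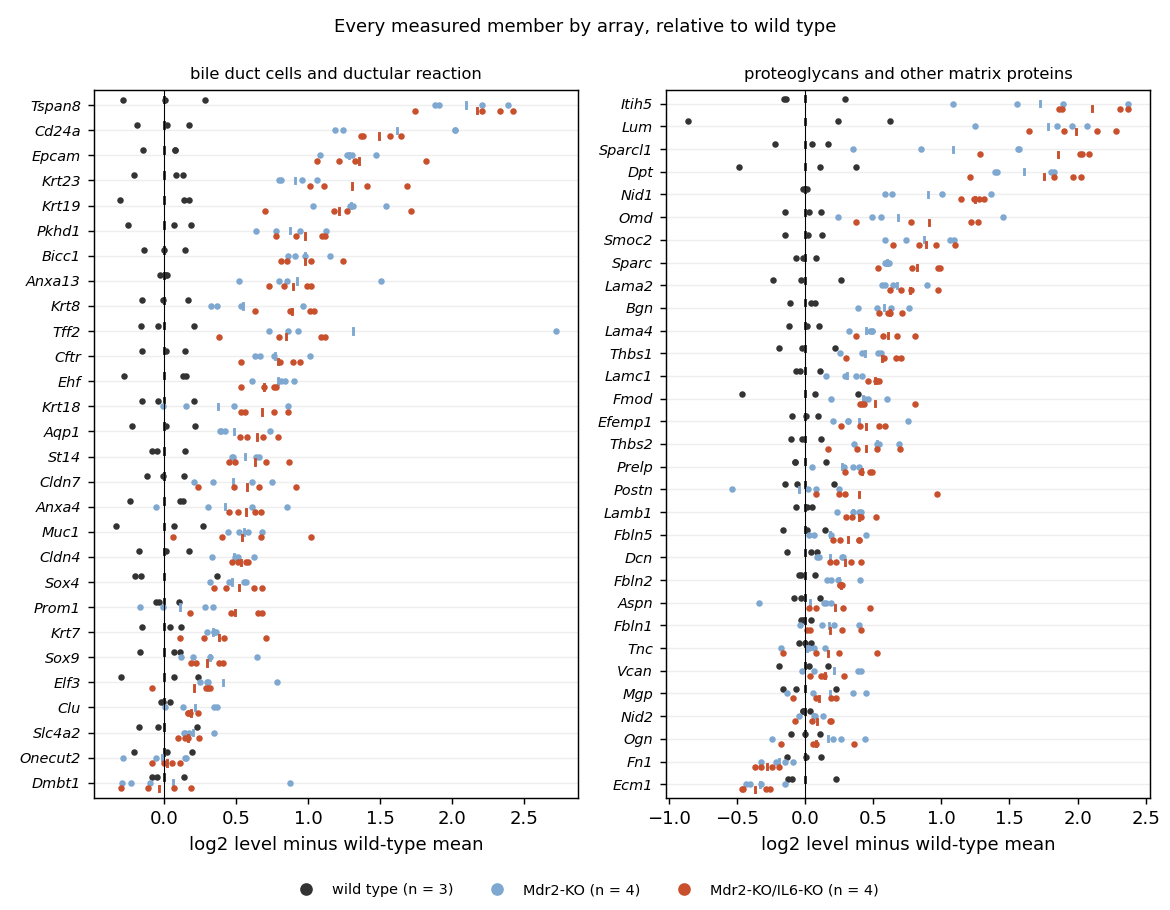
Every measured bile duct gene (left) and matrix proteoglycan or glycoprotein gene (right) on each array, as log2 level minus the wild-type mean (horizontal axis); points are arrays, short bars are group means, black is wild type, blue Mdr2-KO and orange Mdr2-KO/IL6-KO. Of 28 bile duct genes 27, and of 31 matrix genes 29, have a double-knockout mean above wild type.

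Genes of tight junctions and epithelial keratins overlapped with that list and rose in 10 of 23 cases, with none lower (median 0.37). Besides Cdh1 and the keratins, occludin, Ocln, rose 2.15-fold (adjusted p = 0.00138) and Cldn1 1.75-fold (adjusted p = 0.00399), both strand proteins of the seal between epithelial cells. The junctional proteins F11r (1.57-fold) and cingulin, Cgn (log2 change 0.46), passed narrowly. The call of F11r ended in 6 of the 11 leave-one-out fits (highest adjusted p 0.144, without wild-type replicate 2). That of Cgn ended in 10 of them (0.222 without wild-type replicate 1).

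Matrix genes rose in every class measured. Of 20 collagens 7 rose and none fell (median 0.26). Col1a1, which with Col1a2 forms the main fibre of scar, read 7.34, 6.91 and 7.20 in wild type and 8.18, 8.55, 8.79 and 8.06 in the double knockout (2.37-fold higher, log2 change 1.24 ± 0.16 SE, adjusted p = 0.000621). Col6a3, a microfibril collagen, read 6.15, 5.94 and 6.30 against 7.20, 7.45, 7.5 and 7.15 (2.29-fold higher, adjusted p = 6.55e-05). Col12a1, which decorates fibrils, read 4.33, 4.49 and 4.46 against 5.19, 5.39, 5.22 and 5.30 (1.80-fold higher, adjusted p = 7.18e-05). No double-knockout array reached down to wild type in these 3 genes. Col1a2 rose 2.22-fold and Col3a1 1.96-fold, and both calls held whichever array was left out. Col5a2 rose 1.45-fold and the basement membrane chain Col4a2 1.33-fold, calls that ended without wild-type replicate 2 (adjusted p = 0.0867) and wild-type replicate 3 (0.166). Col14a1 (log2 change 0.06, adjusted p = 0.865) and Col15a1 (0.16, adjusted p = 0.531) were not called.

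Of 31 proteoglycans and matrix glycoproteins 14 rose and none fell (median 0.44). Lum, lumican, a keratan sulphate proteoglycan that spaces collagen fibrils, read 6.14, 4.66 and 5.76 in wild type and 7.66, 7.80, 7.42 and 7.16 in the double knockout (3.97-fold higher, adjusted p = 0.00174). Dpt, dermatopontin, read 5.62, 4.76 and 5.35 against 7.07, 7.27, 7.21 and 6.45 (3.38-fold higher, adjusted p = 0.000609). In both, wild-type replicate 2 was the lowest array. Itih5, of the family of hyaluronan-binding heavy chains, read 5.44, 5.89 and 5.46 against 7.46, 7.48, 7.97 and 7.91 (4.32-fold higher, adjusted p = 0.000346). Nid1, which links laminin to collagen IV, read 6.50, 6.48 and 6.47 against 7.80, 7.72, 7.76 and 7.63 (2.38-fold higher, adjusted p = 0.000483). Sparcl1 rose 3.61-fold, Smoc2 1.86-fold, Sparc 1.76-fold and biglycan, Bgn, 1.54-fold. The laminin chains Lama2, Lama4 and Lamc1 rose 1.43- to 1.71-fold. Lamb1, Thbs1 and Prelp rose 1.32- to 1.47-fold, and their calls ended without wild-type replicate 3 (adjusted p = 0.0906, 0.116 and 0.152). Decorin, Dcn, with 10.58, 10.36 and 10.53 against 10.83, 10.90, 10.67 and 10.72, was not called (adjusted p = 0.118).

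Genes of elastic fibres, of collagen crosslinking and of matrix breakdown rose in part. Of 20 genes of elastic fibres and collagen crosslinking 8 rose and 1 fell (median 0.33), and 3 of these calls, Fbn2, Loxl1 and Ltbp2, were left without wild-type replicate 2. The lysyl oxidase Loxl1 read 5.29, 4.85 and 5.06 in wild type and 5.95, 6.15, 6.39 and 5.93 in the double knockout (2.05-fold higher, adjusted p = 0.00229), the fibrillin Fbn2 rose 2.04-fold and the latent TGF-beta binding protein Ltbp2 1.5-fold. The lysyl hydroxylase Plod2 rose 1.42-fold (adjusted p = 0.0515 without wild-type replicate 2). The other 5 calls, Eln, Serpinh1, Lox and Loxl3 higher and Loxl4 lower, each ended in some leave-one-out fit, with adjusted p up to 0.206, for Lox without wild-type replicate 3. Of 18 metalloproteinases and inhibitors 7 rose and none fell. Mmp12, macrophage elastase, read 6.26, 4.92 and 5.64 against 8.03, 7.82, 7.69 and 7.24 (4.24-fold higher, adjusted p = 0.00117), and Mmp7, an epithelial matrilysin, rose 2.35-fold (adjusted p = 0.000770). The gelatinase Mmp2 rose 2.31-fold, Timp2 1.84-fold, Timp1 1.81-fold, the aggrecanase Adamts5 1.79-fold and Timp3 1.74-fold. Of these 7 the call of Timp1 ended without wild-type replicate 2 (adjusted p = 0.0619).

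Genes of stellate cells and myofibroblasts, the scar-forming cells of the liver, rose in 7 of 25 cases with none lower, but the median was 0.10. The integrin chain Itga8 and the neurotrophin receptor Ntrk2 led, 4.01-fold (adjusted p = 6.72e-06) and 3.81-fold (adjusted p = 1.21e-05). The platelet-derived growth factor receptors followed, Pdgfrb with 6.55, 6.73 and 6.65 in wild type and 7.22, 7.43, 7.84 and 7.41 in the double knockout (1.78-fold higher, adjusted p = 0.00745) and Pdgfra 1.65-fold higher (adjusted p = 0.00882). The defining markers went separate ways. Acta2, smooth muscle actin of myofibroblasts, read 6.75, 6.33 and 6.18 against 6.45, 6.62, 6.53 and 6.28 (adjusted p = 0.936), and the quiescent stellate markers Lrat, Des and Reln were not called (adjusted p = 0.669, 0.330 and 0.775). Tagln rose 1.41-fold, Adamtsl2 1.67-fold and cytoglobin, Cygb, 1.38-fold, calls that ended without wild-type replicate 2 (adjusted p = 0.172, 0.0698 and 0.145), which left 4 of the 7. Of 27 genes of TGF-beta and PDGF signalling 10 rose and none fell (median 0.38), but 5 passed without wild-type replicate 2 and 4, namely Pdgfd, Tgfb3, Pdgfrb and Pdgfra, in every leave-one-out fit. The ligands Pdgfd, 4.74, 4.60 and 4.70 against 5.59, 5.71, 5.51 and 5.53, and Tgfb3, 4.87, 4.51 and 4.61 against 5.33, 5.44, 5.71 and 5.38, rose 1.87-fold (adjusted p = 0.00130) and 1.74-fold (adjusted p = 0.00164). The matricellular protein Ccn1 rose 1.85-fold (adjusted p = 0.0563 without wild-type replicate 1). The other calls that ended were those of Smad7 and the integrin chain Itgb6 without wild-type replicate 2 (adjusted p = 0.0931 and 0.0974), the ligand Pdgfc and the integrin chain Itgav without wild-type replicate 3 (0.0911 and 0.167), and Itgb8 without wild-type replicate 1 (0.196). Ccn2, a relative of Ccn1, was not called (log2 change 0.59, adjusted p = 0.156).

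Macrophage genes gave a mixed picture. None of 21 markers of Kupffer cells and macrophages was called, against 4.20% of all genes (median -0.17). Their levels varied widely among the wild-type arrays, with list means of 7.48 to 8.42 there and 7.75 to 8.01 in the double knockout. Vsig4, a complement receptor of Kupffer cells, read 9.87, 8.63 and 6.60 in wild type, and Marco, a scavenger receptor, 5.46, 8.24 and 5.31; on the double-knockout arrays they lay at 8.24 to 9.26 and 5.45 to 6.10. Of 19 genes of recruited and scar-associated macrophages 5 rose and 1, Fabp5, fell. Gpnmb, a glycoprotein of lipid-laden macrophages, read 5.34, 5.02 and 5.32 against 7.35, 6.55, 7.11 and 6.18 (2.97-fold higher, adjusted p = 0.00229), and Cd9, a tetraspanin shared with epithelium, rose 2.13-fold. Cd63 and the protease Ctsk rose 2.27-fold and 1.47-fold, calls that ended without wild-type replicate 2 (adjusted p = 0.168) and wild-type replicate 3 (0.206). Trem2, a defining receptor of such macrophages, read 5.90, 5.78 and 5.69 against 5.97, 5.99, 5.96 and 5.74 (adjusted p = 0.651).

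A minority of lymphocyte and interferon genes passed the test, and those that did fell (1.29% of all genes were called lower). Of 25 T and NK cell genes 4 fell and none rose, 22 changes were negative and the median was -0.28. The chemokine Ccl5 fell 2.75-fold, the granzymes Gzmb and Gzma 1.71-fold and 1.52-fold, and the co-receptor Cd8a 1.5-fold. Cd8a read 6.34, 5.81 and 6.18 in wild type and 5.54, 5.49, 5.88 and 5.21 in the double knockout, so that double-knockout replicate 3 lay above wild-type replicate 2. All 4 calls ended without wild-type replicate 1 (adjusted p = 0.100 for Ccl5, 0.154 for Gzmb, 0.165 for Gzma and 0.204 for Cd8a). The defining T cell markers Cd3e and Cd3g had log2 changes of -0.36 and -0.85 (adjusted p = 0.0970 and 0.215). Of 24 interferon-stimulated genes 3 fell, the GTPases Irgm1 (1.94-fold), Mx2 (1.76-fold) and Iigp1 (1.69-fold), with a median of -0.30. None of these calls held in every leave-one-out fit (highest adjusted p 0.0809 for Irgm1 without wild-type replicate 1, and 0.103 for Mx2 and 0.176 for Iigp1 without wild-type replicate 3). Tap1, the peptide transporter of antigen presentation, read 7.61, 7.30 and 7.52 against 6.56, 6.55, 6.86 and 6.99 (1.67-fold lower, adjusted p = 0.00605). Xbp1, a transcription factor of secretory cells, plasma cells and hepatocytes among them, fell 1.73-fold (adjusted p = 0.00919) and was the only call among 17 B and plasma cell genes. None of 18 neutrophil and mast cell genes was called. S100a8 had a log2 change of -0.50 (adjusted p = 0.419) and Ly6g one of -0.2 (adjusted p = 0.37). Of 32 chemokines and cytokines Cxcl14 and Cxcl5 rose 2.0-fold and 1.55-fold and Ccl5 fell. Calls of Cxcl14 (adjusted p = 0.0801) and Cxcl5 (0.0931) ended without wild-type replicates 3 and 2. The chemokine Ccl2 and tumour necrosis factor, Tnf, were not called (log2 change 0.04 and -0.23). Cxcl9, an interferon-induced chemokine, read 8.47, 6.87 and 8.55 against 6.35, 6.42, 6.78 and 6.62 (log2 change -1.42, adjusted p = 0.0663).

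A minority of endothelial and cell cycle genes passed the test, and those that did rose (2.91% of all genes were called higher). Of 29 endothelial genes 3 rose. Cd34, a sialomucin of capillary endothelium and mesenchymal cells, read 5.14, 4.66 and 5.05 in wild type and 6.34, 6.59, 6.28 and 6.24 in the double knockout (2.67-fold higher, adjusted p = 3.11e-05). The sinusoidal markers Lyve1 and Stab1 rose 1.58-fold and 1.29-fold, while Stab2 and Clec4g were not called (adjusted p = 0.358 and 0.285). The probe sets of Clec4g went opposite ways, with log2 changes of 0.36 on the one used and -0.33 on the other. Calls of Lyve1 and Stab1 ended without wild-type replicate 1 (adjusted p = 0.155) and wild-type replicate 2 (0.156). Of 36 cell cycle genes 33 had a positive change (median 0.27), yet 2 were called. The phosphatase Cdc25c, which starts mitosis, rose 1.42-fold (adjusted p = 0.00919) and the proliferation antigen Mki67 1.65-fold (adjusted p = 0.0340, and 0.149 without wild-type replicate 2). Of 19 p53 and senescence genes Igfbp7, a secreted growth factor binding protein, rose 1.97-fold (adjusted p = 0.000770) and Eda2r, a death-domain receptor, 1.64-fold (adjusted p = 0.0334, and 0.129 without wild-type replicate 1); Igfbp7 was also the only call among 17 genes of the IGF axis.

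Detoxification enzymes rose in part. Of 19 glutathione transferases 6 rose and none fell, while the median was 0.06. The calls numbered 2 without double-knockout replicate 1, and Gsta4 alone was called in every leave-one-out fit. Gsta4, which conjugates lipid peroxidation products, read 9.18, 8.70 and 8.5 in wild type and 10.58, 10.22, 10.43 and 10.11 in the double knockout (2.91-fold higher, adjusted p = 0.000736). Gstm3 rose 2.41-fold (log2 change 1.27), and its other probe set gave a log2 change of 2.16. Gstp1 rose 1.67-fold, Mgst3 1.54-fold, Gstm4 1.42-fold and Gstm1 1.39-fold. These calls ended without wild-type replicate 2 (adjusted p = 0.0822 for Gstm3, 0.150 for Gstm1 and 0.151 for Gstm4), 3 (0.0564 for Gstp1) or 1 (0.158 for Mgst3). Of 22 other targets of the transcription factor NRF2, 7 rose and none fell (median 0.39), and 3 of the 7 passed without wild-type replicate 2. Microsomal epoxide hydrolase, Ephx1, rose 1.84-fold (adjusted p = 0.000420), the aldo-keto reductase Akr1b8 1.89-fold (adjusted p = 0.00264), Ugdh, which makes UDP-glucuronate, 1.49-fold (adjusted p = 0.00377) and the carbonyl reductase Cbr1 1.56-fold (adjusted p = 0.0109, and 0.0549 without wild-type replicate 2). The glutathione synthase Gss was not called without wild-type replicate 1 (adjusted p = 0.143), nor the carbonyl reductase Cbr3 and the pump Abcc4 without wild-type replicate 2 (0.197 and 0.0939). Nqo1, a standard NRF2 target, read 5.86, 4.90 and 5.6 against 6.63, 6.08, 5.96 and 6.79 (log2 change 0.91, adjusted p = 0.0925).

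Among 24 markers of fetal liver and of liver cancer, 6 were called higher and 2 lower, and 5 of the 8 calls were left without wild-type replicate 3. Besides Tspan8, Epcam and Ly6d, Robo1, a guidance receptor, rose 1.87-fold (adjusted p = 0.000745) and Golm1, a Golgi protein, 1.77-fold (adjusted p = 0.00528). Lcn2 and the vitamin E-binding protein Afm were the members that fell, and neither was called without wild-type replicate 3 (adjusted p = 0.0997 and 0.0691). The riser Cbr3 was not called without wild-type replicate 2 (adjusted p = 0.197). Of 25 genes of the EGF receptor family, MET and YAP targets 4 rose and 2 fell. The ligand betacellulin, Btc, rose 1.55-fold (adjusted p = 0.00240) while its receptor Egfr fell, as did Hgfac, the protease that activates hepatocyte growth factor, 1.52-fold (adjusted p = 0.00528). The YAP targets Ajuba and Ankrd1 rose 1.64-fold and 1.69-fold (adjusted p = 0.00445 and 0.00550). Annexins and S100 proteins, which bind calcium and membranes, rose in 7 of 23 cases (2.91% of all genes were called higher). Of these, the calls of Anxa3 (adjusted p = 0.190) and Anxa9 (0.116) ended without wild-type replicate 3. Anxa5 read 9.98, 9.64 and 9.72 in wild type and 11.43, 11.21, 11.13 and 11.19 in the double knockout (2.75-fold higher, adjusted p = 6.55e-05), and Anxa2 read 7.27, 6.61 and 6.62 against 8.54, 8.26, 7.92 and 8.23 (2.65-fold higher, adjusted p = 0.00209). S100a11 rose 2.29-fold, and its other probe set gave a log2 change of 1.23. Anxa6 rose 1.47-fold on the probe set used, but its other probe set gave a log2 change of -0.15, and the mean of both was not called.

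Calls among stress, clock and energy genes were few, beside a share of 4.20% over all genes. In the unfolded protein and integrated stress responses Xbp1 and Atf4 fell and Trib3 rose, 3 of 24 genes. Calls of Atf4 and Trib3 ended without wild-type replicate 2 (adjusted p = 0.103 and 0.120). Among 23 immediate early and heat shock genes the small heat shock protein Hspb1 rose 2.03-fold (adjusted p = 0.0117), and Jun and Klf6 1.65-fold and 1.64-fold, calls that ended without wild-type replicate 2 (adjusted p = 0.0926 and 0.0786). Among these stress calls those of Xbp1 and Hspb1 held in every leave-one-out fit, but neither passed without moderation of the variances (adjusted p = 0.0615 and 0.0816). None of 17 clock genes was called (median -0.01). In the respiratory chain Sdhc rose 1.27-fold, 1 of 19 genes (adjusted p = 0.0358, and 0.136 without wild-type replicate 2). Markers of other tissues that a liver sample could carry were not called: 0 of 16 genes of pancreas, gut, fat and muscle (list means 4.97 to 5.03 in wild type and 4.90 to 4.95 in the double knockout) and 0 of 5 erythroid genes. The fat marker Adipoq averaged 2.73 and 2.74, and the B cell marker Cd79a 3.57 and 3.62, near the bottom of the scale in both groups.

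**Figure D5:**
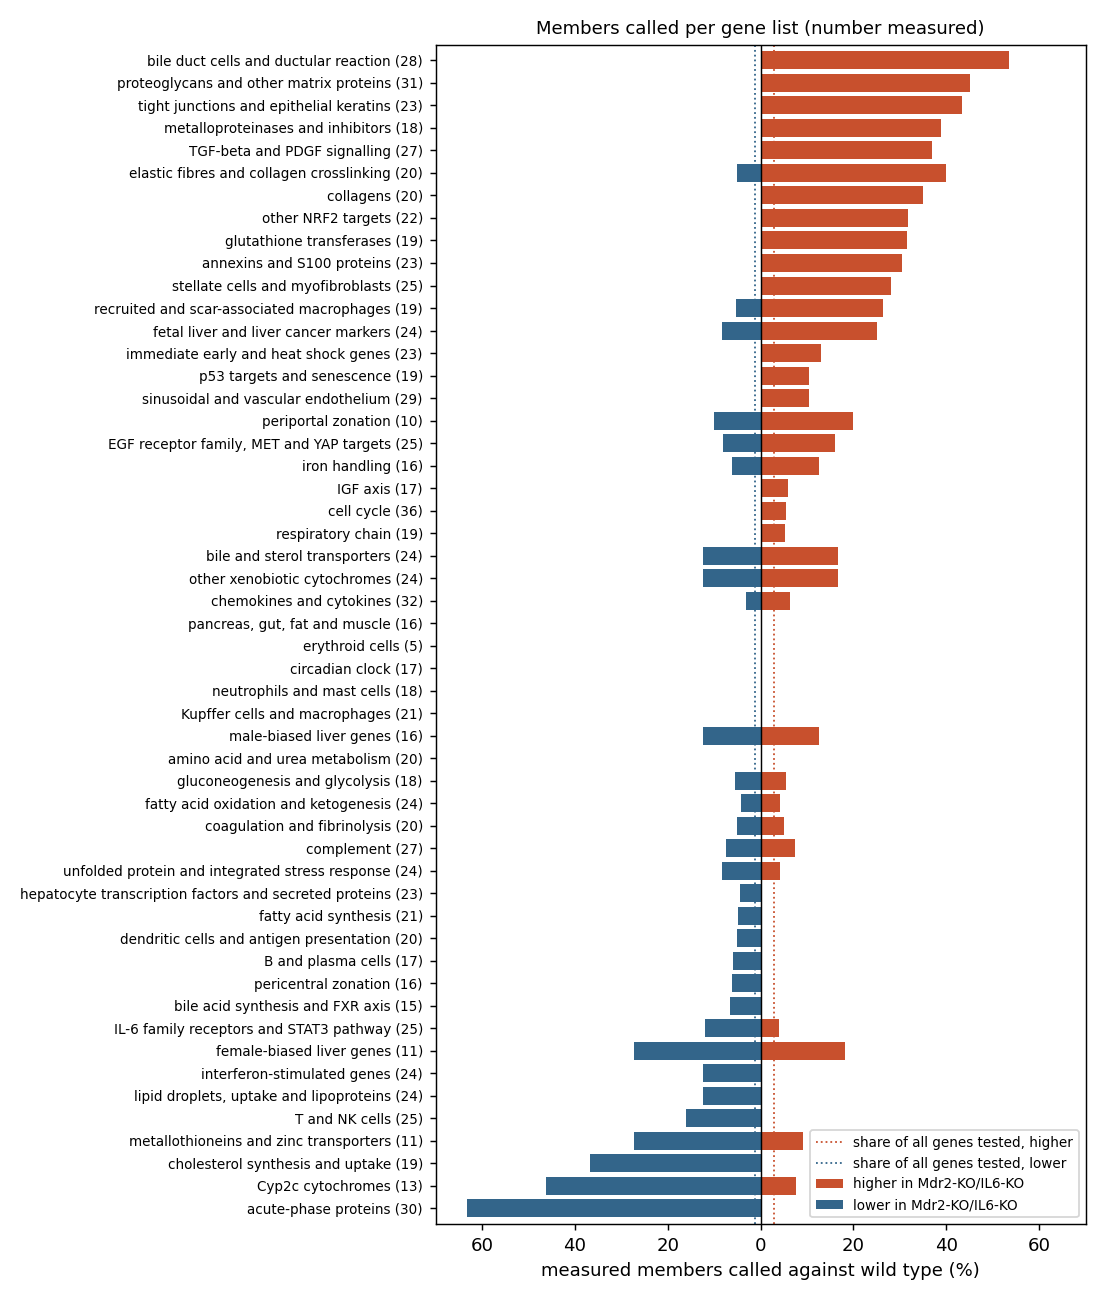
Share of the measured members of each gene list called against wild type (percent, horizontal axis), orange to the right for higher and blue to the left for lower in Mdr2-KO/IL6-KO, with the number measured beside each name; dotted lines mark the shares of all 19920 genes, 2.91% higher and 1.29% lower. Acute-phase proteins reach farthest left with 19 of 30 and bile duct genes farthest right with 15 of 28.

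The Mdr2-KO arrays were set beside these values to show how the double knockout relates to loss of Mdr2 with Il6 intact. Both knockouts are measured against the same 3 wild-type arrays, so their differences from wild type are not independent of each other. Against wild type 254 genes were called in Mdr2-KO (1.28%), and between the knockouts 1 gene was called, Fgl1 (0.00502%). Fgl1 averaged 10.76 in Mdr2-KO and was lower in the double knockout (log2 change -1.94 between the knockouts, adjusted p = 0.00106). Acute-phase proteins had a median log2 change of -0.38 against wild type in Mdr2-KO and of -0.90 in the double knockout. Saa1 averaged 8.70 in Mdr2-KO (3.06-fold below wild type, adjusted p = 0.129), Apcs 8.95 (2.44-fold, 0.108) and Itih3 11.45 (1.18-fold, 0.546), and between the knockouts none of the 3 passed (adjusted p = 0.816, 0.999 and 0.617). Mt1 and Mt2 averaged 9.64 and 9.47 in Mdr2-KO, 3.99-fold and 5.59-fold below wild type. Stat3 averaged 9.06 there, between both groups (adjusted p = 0.626 between the knockouts), and Cyp2c54 8.04 (adjusted p = 0.0722 between the knockouts).

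Ductal and matrix genes lay close together in the knockouts. The bile duct list had a median log2 change of 0.52 against wild type in Mdr2-KO and of 0.64 in the double knockout, and of 0.03 between them. Krt19 averaged 6.47 in Mdr2-KO and 6.39 in the double knockout, Epcam 6.54 and 6.61, Col1a1 8.17 and 8.39, and Lum 7.30 and 7.51. Cyp2c39 averaged 10.22 in Mdr2-KO and 10.45 in the double knockout, Cib3 8.10 and 8.38, and Cyp17a1 4.37 and 4.40. Cholesterol synthesis had medians of -0.29 and -0.51 against wild type and of -0.23 between the knockouts, with no member called between them. Pdk4 averaged 6.08 in Mdr2-KO, 1.33-fold above wild type (adjusted p = 0.559), and the difference of 0.75 from the double knockout did not pass either (adjusted p = 0.656).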

How the data were processed

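The authors deposited log2 levels per probe set for 11 arrays, made by RMA (Partek), as the submitters' processing notes list them; versions and settings are not given in the sources used here. Per the labels' protocols, total RNA from snap-frozen liver was hybridised as biotinylated cRNA. The deposited log2 values were used without further normalization or filter; medians per array over genes were 5.53 to 5.6. Probe sets took names from the platform annotation, updated through RefSeq (GRCm38.p6); 1621 had several symbols, 12147 had none, and 1015 genes had several probe sets.

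One limma model (limma 3.58.1, R 4.3.3) held all 11 arrays, with a mean per group and moderated variances, two-sided, with Benjamini-Hochberg adjustment over 19920 genes. It was tested on simulated data with independent normal noise of the same spread in all groups, where 11 of 199 calls were false. Such data hold no correlated genes or outlying arrays, so they do not measure the error rate on these arrays. The number of arrays limits the precision. Members, the 52 gene lists (99 of 1193 entries lacked an own probe set) and the tests were chosen with earlier results of these data known, so lists are described by counts and medians without a test. The rule for naming genes took the targeted Abcb4 and Il6 and 12 called genes per direction with the largest change and no overlap (predicted loci left out). It also took up to 4 called members per list by lowest p (the lowest p where none was called). All measured members of the metallothionein and zinc transporter list and of the Cyp2c list were taken as well. So were called neighbours of the targeted genes and defining cell markers. Not every gene that the rule took is described in the text. Further members and uncalled genes were named after their values were seen. Planned comparisons of protein sequences were not run.

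Alternatives were no moderation, trend with robust moderation, median centring, quantile normalization, averaging probe sets per gene, genes brighter than the median, only the 7 arrays, and leaving out each of the 11 arrays.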

Additional observations from a re-analysis of the deposited data

Results flagged for a closer look

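Of the 194 genes that the rule named, 8 had a double-knockout array that stood far from the other 3 by Dixon's criterion. In groups drawn without selection, chance meets it in about 1 of 20. Most of these genes were chosen by their test results, and all share the same arrays. Whether this number differs from chance was not tested. Replicate 4 was low for C7 (6.08, against 6.48 to 6.51), Cpa1 (4.24, against 4.38 to 4.39) and Steap4 (10.14, against 10.36 to 10.40) and high for Cyp2c50 (8.90, against 8.07 to 8.17). Replicate 1 was high for Plod2 (4.80, against 4.40 to 4.43) and low for Slc30a1 (7.27, against 7.49 to 7.53). Replicate 2 was high for Mt3 (6.35, against 6.08 to 6.12) and low for Slc22a27 (4.29, against 4.76 to 4.85).

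The fall of Fgl1 differed between the knockouts by a tested log2 difference of -1.94 (limma adjusted p = 0.00106), the only gene named for which that difference passed. Outside the gene test, 4 of 13768 probe sets with several symbols or none were called (0.0291%), 1 higher and 3 lower.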

How the results depend on the processing

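Without moderation of the variances, 496 genes were called, 356 higher and 140 lower; 442 were among the 836. The 6 other alternatives outside the leave-one-out fits gave 769 to 964 calls, and with median centring 64.0% of calls were higher, against 69.4%. Without 1 of the Mdr2-KO arrays, which are not part of the comparison, the calls numbered 736 to 985. Leaving out an array gave 464 to 985 calls, 325 to 677 higher and 134 to 308 lower. The lower calls numbered 134 without wild-type replicate 1, 166 without wild-type replicate 2, and 160, 151 and 168 without double-knockout replicates 1, 2 and 3. The higher calls numbered 330, 367 and 325 without wild-type replicates 1, 2 and 3, and 375 and 384 without double-knockout replicates 1 and 3. Of 145 called genes named by the rule, 82 stayed called in every alternative, 92 in every leave-one-out fit, and 0 changed direction. A call said above to end without 1 array could also end without others. Calls of Loxl3 and Cgn ended in 10 of the 11 leave-one-out fits, and those of Galnt11 and Tbx3 in 9. Those that ended in 8 included Krt18, Ldha, Cd8a, Cyp2d9, Cyp2a12, Cyp3a13, Gzmb, Stab1, Lox, Loxl4, Ctsk, Itgb8, Cbr3, Gss and Ebp. With no moderation 54 named genes were not called, among them Pdk4, Pdgfra, Pdgfrb, Fgf21, Hspb1, Slc39a14, Slc22a7 and Xbp1, which held in every leave-one-out fit. Small list counts also grew when an array was left out: 0 to 7 calls for interferon-stimulated genes, 2 to 6 for fatty acid oxidation and 0 to 4 for pericentral genes. No paired analysis was possible because the labels give no replicate numbers that the groups share. The number of arrays limits the precision, and signal over background was not used here.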

Other observations

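Some called genes outside the lists were chosen after their values were seen. Mfge8, a bridging protein for the uptake of dying cells, read 6.65, 6.77 and 6.81 in wild type and 8.5, 8.34, 8.56 and 8.06 in the double knockout (3.07-fold higher, limma adjusted p = 3.11e-05). Scn7a, a sodium channel relative of glia and mesenchyme, read 3.64, 3.70 and 3.58 against 4.96, 5.2, 5.13 and 4.86 (2.63-fold higher, adjusted p = 6.72e-06). The retinaldehyde dehydrogenase Aldh1a2 rose 2.26-fold, caveolin, Cav1, 2.23-fold, the secreted matrix protein Ccdc80 2.82-fold and Emp1, an epithelial membrane protein, 2.35-fold. Rragd, a GTPase that brings amino acid signals to mTORC1, rose 3.57-fold, the sterol-binding protein Osbpl3 3.25-fold, the kinase Map3k13 2.85-fold and the retinol dehydrogenase Dhrs9 3.01-fold. The calls of these 10 genes held whichever array was left out.

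Among falling genes, Slc41a2, a magnesium carrier, read 9.81, 9.71 and 9.47 in wild type and 7.90, 7.51, 8.13 and 7.83 in the double knockout (3.54-fold lower, adjusted p = 5.74e-05). Slc3a1, the partner chain of the cystine transporter, read 9.61, 9.63 and 9.70 against 7.88, 7.73, 8.29 and 8.10 (3.14-fold lower, adjusted p = 9.18e-05). The lubricating glycoprotein Prg4 fell 3.26-fold, the interleukin 13 receptor chain Il13ra1 2.18-fold, the corticosteroid-binding globulin Serpina6 1.88-fold and Hsd11b1, which regenerates glucocorticoid, 1.64-fold. Acss2, which makes acetyl-CoA from acetate, and the sterol reductase Tm7sf2 fell 2.03-fold and 1.84-fold. These 8 calls also held whichever array was left out. The interferon-induced GTPase Gbp5 fell 1.85-fold (adjusted p = 0.00229), a call that held as well, while those of Gbp4 (2.26-fold lower) and Gbp7 (1.64-fold lower) ended, with adjusted p = 0.0725 without wild-type replicate 1 and 0.151 without wild-type replicate 3. The monocyte receptors Cd300e and Fcgr4 fell 3.74-fold and 3.30-fold, with wild-type replicate 3 lowest of its group at 5.89 and 7.08 and calls that ended without wild-type replicate 1 (adjusted p = 0.0546 and 0.115).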
